A study of Mus musculus with 16 samples.

Results

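The question examined here is whether sorting for the Pax7 reporter changed gene expression by the same amount in 2 kinds of mouse muscle cell culture. For each gene the sort effect is the log2 fold change of sorted over unsorted cells. The sort effect difference is the sort effect in the MPC culture minus that in the myoblast culture. It was taken from 12 of the 16 libraries of the series, 3 in each of 4 groups. All 12 came from primary skeletal muscle cells of 16-week-old male mice that carry Pax7-nGFP, a nuclear green fluorescent protein reporter of Pax7. Bulk myoblasts were unsorted cells harvested at passage 3 in a myoblast medium with serum and basic FGF. GFP+ myoblasts were grown in the same medium and sorted for GFP at passage 5 to 6. Bulk MPC and GFP+ MPC had spent 2 to 3 passages in myoblast medium and then 5 to 6 passages in MPC medium with 5 µM forskolin, 5 µM RepSox and CHIR9901, spelled as in the labels, at 3 µM, and were taken unsorted or sorted for GFP. Sorting collected 300000 to 500000 cells. Forskolin activates adenylyl cyclase and RepSox inhibits the TGF-beta type I receptor. What MPC stands for is not given. The high-passage GFP+ MPC library was left out. The 3 libraries of differentiated myoblasts entered through the filter on low counts, the scaling and the shared estimate of the spread.

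Pax7, a paired-box transcription factor, is made by muscle stem cells and by the proliferating progenitors they give rise to. When such cells commit, they raise Myod1, leave the cell cycle under Cdkn1a, switch on Myog and fuse into myotubes that build sarcomeres, the calcium release apparatus and the acetylcholine receptors of the muscle endplate. Notch signalling keeps muscle stem cells from differentiating, with ligands of the Jag and Dll families on one cell activating Notch receptors on its neighbour and genes of the Hey family as targets. An unsorted culture averages all its cells, so a sort effect compares Pax7-reporter cells with that average.

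The 12 libraries held 19300307 to 29127963 estimated counts, and values below are CPM, counts scaled to a common library size with TMM factors, given for replicates 1, 2 and 3 in that order. Log2 values carry a standard error, and a gene passed at an adjusted p under 0.05 in the quasi-likelihood test of edgeR across 15533 genes. In both cultures the RNA kit differed between sorted and unsorted cells, so kit and sort cannot be told apart within a culture. Sorted and unsorted myoblasts also differed in passage, and by the labels the MPC groups did not. The labels do not say which replicates came from separate animals, so p-values measure the spread between these samples. In bulk MPC the 10 most abundant genes took 12.02% to 14.1% of the counts, against 6.25% to 7.72% in the other groups. Bulk MPC replicate 2 stood apart from the other 2 bulk MPC libraries. Its median level was higher by 1.19 on the log2 scale over mitosis genes, 1.86 over collagens and basement membrane genes and 2.52 over markers of fibroblasts and fibro-adipogenic progenitors. GFP+ MPC replicate 2 was higher than the other GFP+ MPC libraries by 1.06 over sarcomere genes.

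The sort effect differed between the cultures for 5755 of 15533 genes (37.1%), being higher in the MPC culture for 3149 (20.3%) and lower for 2606 (16.8%). These 2 shares are the background for all counts of list members below. The median difference of all tested genes was 0.09. With library totals alone as the scale, that median was 0.46 and the split was 5490 higher to 1547 lower, so 78.0% of the called genes were higher in place of 54.7%. With the size factors of DESeq2 as the scale, the median was 0.03 and the split was 2880 to 2864, or 50.1% higher. An excess of higher over lower genes thus depended on the scale. Sorting moved more genes in the MPC culture, where 5118 genes rose (32.9%) and 5232 fell (33.7%), than in the myoblast culture, where 1966 rose (12.7%) and 2701 fell (17.4%). Without bulk myoblast replicate 3 the genes that rose in the myoblast culture numbered 828, without GFP+ myoblast replicate 3 they numbered 1089, and without bulk myoblast replicate 1 they numbered 1106. The standard deviation of the sort effect over all genes was 1.85 in the MPC culture and 1.27 in the myoblast culture.

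Most genes with a different sort effect moved in the MPC culture and not past the threshold in the other. Of the 3149 higher genes, 1816 rose in the MPC culture alone and 1018 rose in both cultures. The rest were 132 that fell in the myoblast culture alone, 79 that rose in the MPC culture and fell in the myoblast culture, 64 that fell in both and 40 with neither effect past the threshold. Of the 2606 lower genes, 1657 fell in the MPC culture alone, 808 fell in both, 54 rose in the myoblast culture alone, 44 fell in the MPC culture and rose in the myoblast culture, and 43 had neither effect past the threshold. Both effects passed for 4074 genes, with the same direction for 3951 and the opposite direction for 123. Among the 3951, the difference passed for 1890, of which 1826 had the larger effect in the MPC culture and 64 in the myoblast culture. Both MPC groups lay at an extreme of the 4 groups for most called genes. Bulk MPC had the lowest mean for 78.3% of the higher genes and the highest mean for 77.0% of the lower genes. Over all tested genes it had the lowest mean for 34.5% and the highest for 34.8%. GFP+ MPC had the highest mean for 69.9% of the higher genes and the lowest for 69.1% of the lower genes. Over all tested genes these shares were 29.7% and 25.1%. The calls rest on the same libraries, so part of this pattern follows from the choice of genes. Across the 15533 genes, which are not independent replicates, the 2 sort effects correlated with a Pearson's r of 0.655 and a Spearman's coefficient of 0.649, and 74.9% had the same sign. The 2 effects share no library, but they share the pair of RNA kits.

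**Figure D1:**
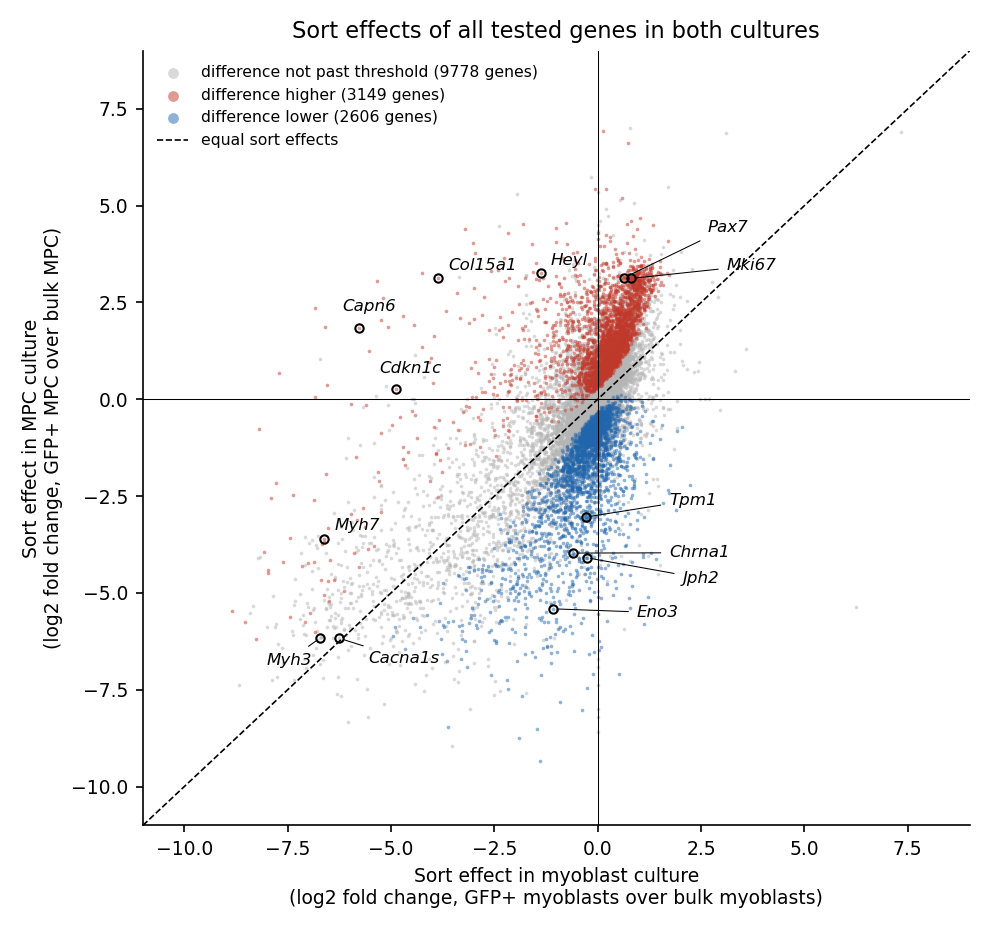
Sort effect (log2 fold change, GFP+ over bulk) in the myoblast culture on the x axis and in the MPC culture on the y axis for 15533 genes; red and blue points have a difference past the threshold (3149 higher, 2606 lower) and the dashed line marks equal effects. Myh3 and Cacna1s lie near the line, Pax7 and Mki67 above it, and Jph2, Eno3, Chrna1 and Tpm1 below it.

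Pax7 rose with sorting in the MPC culture, and its sort effect was higher there than in the myoblast culture. Pax7 was at 66.1, 136 and 56.9 CPM in bulk MPC, 593, 862 and 830.0 in GFP+ MPC, 546, 654 and 525 in bulk myoblasts and 867, 824 and 999.6 in GFP+ myoblasts. Sorted libraries lay above unsorted libraries in each culture, and the lowest values by far were those of bulk MPC. The sort effect was 3.14 ± 0.36 in the MPC culture and 0.64 ± 0.33 (adjusted p = 0.159) in the myoblast culture, a difference of 2.50 ± 0.47 (adjusted p = 0.00131) with a 95% interval of 1.48 to 3.52. In these bulk samples, fewer cells of a type and less RNA per cell cannot be told apart. Of the 7 genes tested as myogenic regulatory factors, a list wider than the MyoD family, none had a higher difference and 1 had a lower one. This was Mef2d, a partner of that family in transcription and not a member of it. Mef2d was at 528, 520.1 and 667 CPM in bulk MPC, 127, 126 and 105 in GFP+ MPC, 253, 217 and 348 in bulk myoblasts and 118, 114 and 102 in GFP+ myoblasts. It fell in both cultures, by more in the MPC culture, and its difference was -0.97 ± 0.22 (adjusted p = 0.00416), or -0.60 with library totals alone. Without GFP+ MPC replicate 2, 3 of the 7 were lower, and without GFP+ myoblast replicate 3 or bulk MPC replicate 2, 2 were. Without GFP+ MPC replicate 1 or bulk MPC replicate 1, 1 of the 7 was higher, and with library totals alone 2 were.

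Myod1, Myog and Myf5 had differences that did not pass. Myod1, the factor of committed myoblasts, was at 179, 147 and 157 CPM in bulk MPC, 94.5, 205 and 283 in GFP+ MPC, 673, 819 and 687 in bulk myoblasts and 890.1, 953 and 895 in GFP+ myoblasts. Both sort effects were small, 0.27 ± 0.27 and 0.33 ± 0.27, and the difference was -0.06 ± 0.38 (adjusted p = 0.918), with a 95% interval of -0.87 to 0.75 and a sign that turned with library totals alone (0.31). Myog, which drives terminal differentiation, was at 949, 833 and 1059 CPM in bulk MPC, 50.1, 118 and 144 in GFP+ MPC, 1045, 963 and 1282 in bulk myoblasts and 148, 103 and 32.5 in GFP+ myoblasts. It fell in both cultures, with sort effects of -3.19 ± 0.46 and -3.54 ± 0.47, and the difference was 0.35 ± 0.60 (adjusted p = 0.681), with an interval of -0.94 to 1.64. Myf5, a determination factor present in progenitors, rose in both cultures, by 1.76 ± 0.27 and 1.17 ± 0.27, with a difference of 0.59 ± 0.37 (adjusted p = 0.232). Without bulk MPC replicate 1 the Myf5 difference was 0.97 (adjusted p = 0.0331), with library totals alone 0.98 (adjusted p = 0.0362), and without bulk MPC replicate 3 0.32.

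Genes of cell division had a larger sort effect in the MPC culture almost without exception. All 24 mitosis genes tested had a higher difference, against 20.3% of all genes, with a median of 2.22, and 24 of 26 genes of DNA replication and S phase did, with a median of 1.59. Mcm2 and Cdc6 were the other 2. In the MPC culture all 24 and all 26 rose. In the myoblast culture 15 of 24 and 26 of 26 rose, with median sort effects of 0.90 and 1.16 beside 3.12 and 2.83 in the MPC culture. Without bulk MPC replicate 2, whose mitosis genes were the highest of its group, 24 of 24 were still higher.

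The promoters of 3 mitosis genes with large differences are shown here because members of this list moved together. Each is the run of 250 bases before the start of the gene, from RefSeq on GRCm38.p6, read 5′ to 3′ on the strand of the gene. Capitals mark CCAAT on either strand, with ATTGG its form on the other strand. They also mark the letters of the cell cycle homology region, TTTGAA or its variant TTTAAA, with TTCAAA the form of the first on the other strand.
Ccnb1 (chr13:100786487-100786736, minus strand): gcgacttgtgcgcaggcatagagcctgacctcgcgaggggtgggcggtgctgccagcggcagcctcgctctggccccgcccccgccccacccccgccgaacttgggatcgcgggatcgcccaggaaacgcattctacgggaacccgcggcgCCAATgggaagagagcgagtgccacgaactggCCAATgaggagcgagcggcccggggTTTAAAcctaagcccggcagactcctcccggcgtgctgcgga
Cdc20 (chr4:118437344-118437593, minus strand): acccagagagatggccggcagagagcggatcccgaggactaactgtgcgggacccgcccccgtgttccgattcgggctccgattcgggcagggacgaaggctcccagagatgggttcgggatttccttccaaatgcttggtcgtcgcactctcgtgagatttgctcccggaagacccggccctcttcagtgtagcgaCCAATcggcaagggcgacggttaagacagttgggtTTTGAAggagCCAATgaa
Kif11 (chr19:37376132-37376381, plus strand): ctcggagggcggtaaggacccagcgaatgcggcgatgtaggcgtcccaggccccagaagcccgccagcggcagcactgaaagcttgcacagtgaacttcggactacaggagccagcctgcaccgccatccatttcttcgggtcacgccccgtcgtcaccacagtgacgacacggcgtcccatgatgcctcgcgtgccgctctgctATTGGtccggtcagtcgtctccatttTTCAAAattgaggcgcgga
CCAAT begins 99 and 67 bases before the start in Ccnb1, where TTTAAA begins 42 bases before it, and 53 and 8 bases before it in Cdc20, where TTTGAA begins 18 bases before it. In Kif11, ATTGG begins 45 bases and TTCAAA 19 bases before the start. Of the 24 mitosis genes, 20 matched a promoter. CCAAT was found in 16 of the 20 (80%) and in 34.5% of 27025 promoters, with the first listed promoter taken for each gene. TTTGAA or TTTAAA was found in 10 (50%) and in 25.5% of all promoters. Both were found in 9 (45%), and in 9% of all promoters. The 3 promoters shown are among these 9. Nusap1, whose difference lay between those of Cdc20 and Kif11, matched a promoter that held neither. Of 19 matched S phase genes, 13 (68.4%) held CCAAT and 3 (15.8%) held TTTGAA or TTTAAA. These are letter matches, described without a test.

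Ccnb1, the cyclin that drives entry into mitosis, was at 20.6, 38.1 and 22.4 CPM in bulk MPC, 295, 299 and 269 in GFP+ MPC, 79.9, 86.3 and 78.6 in bulk myoblasts and 148, 122 and 174 in GFP+ myoblasts. No groups overlapped, and bulk MPC was lowest and GFP+ MPC highest. The sort effects were 3.41 ± 0.29 and 0.86 ± 0.27, a difference of 2.55 ± 0.38 (adjusted p = 0.000268). Cdc20, which activates the anaphase-promoting complex, was at 10.5, 26.8 and 13.96 CPM in bulk MPC, 204, 159 and 166 in GFP+ MPC, 67.9, 78.8 and 65.2 in bulk myoblasts and 123, 118 and 144 in GFP+ myoblasts. The order of the 4 groups was that of Ccnb1, and the difference was 2.50 ± 0.38 (adjusted p = 0.000303). Kif11, the motor that separates spindle poles, had a difference of 2.41 ± 0.41 and Nusap1, which bundles spindle microtubules, one of 2.47 ± 0.43. Mki67, the proliferation marker, was at 49.5, 156 and 68.9 CPM in bulk MPC, 695, 919 and 760.5 in GFP+ MPC, 191, 173 and 175 in bulk myoblasts and 311, 229 and 398 in GFP+ myoblasts. Its sort effects were 3.12 ± 0.41 and 0.80 ± 0.38 (adjusted p = 0.127), and the difference was 2.32 ± 0.54 (adjusted p = 0.00472).

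Among the S phase genes, the G1 to S cyclin Ccne1 differed most. Ccne1 was at 23.7, 34.5 and 24.3 CPM in bulk MPC, 186, 285 and 239.8 in GFP+ MPC, 46.5, 46.3 and 47.2 in bulk myoblasts and 72.3, 63.9 and 71.6 in GFP+ myoblasts. Replicates lay close together in every group, and GFP+ MPC libraries were far above all others. The sort effects were 3.10 ± 0.19 and 0.57 ± 0.18, a difference of 2.53 ± 0.25 (adjusted p = 1.93e-05). Cyclin A2 (Ccna2) had a difference of 2.39 ± 0.44, the leading-strand polymerase subunit Pole one of 1.95 ± 0.38, and the cell cycle transcription factor E2f1 one of 1.90 ± 0.43. Over the whole list, summed CPM were 419 to 816 in bulk MPC, 1401 to 1881 in bulk myoblasts, 3303 to 4372 in GFP+ MPC and 3012 to 4467 in GFP+ myoblasts. The sorted groups thus overlapped in this sum while the unsorted groups lay apart. For the mitosis list the sums were 379 to 1027, 1562 to 1729.6, 5130.0 to 6161 and 2450.3 to 3890.2 in the same order.

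**Figure D2:**
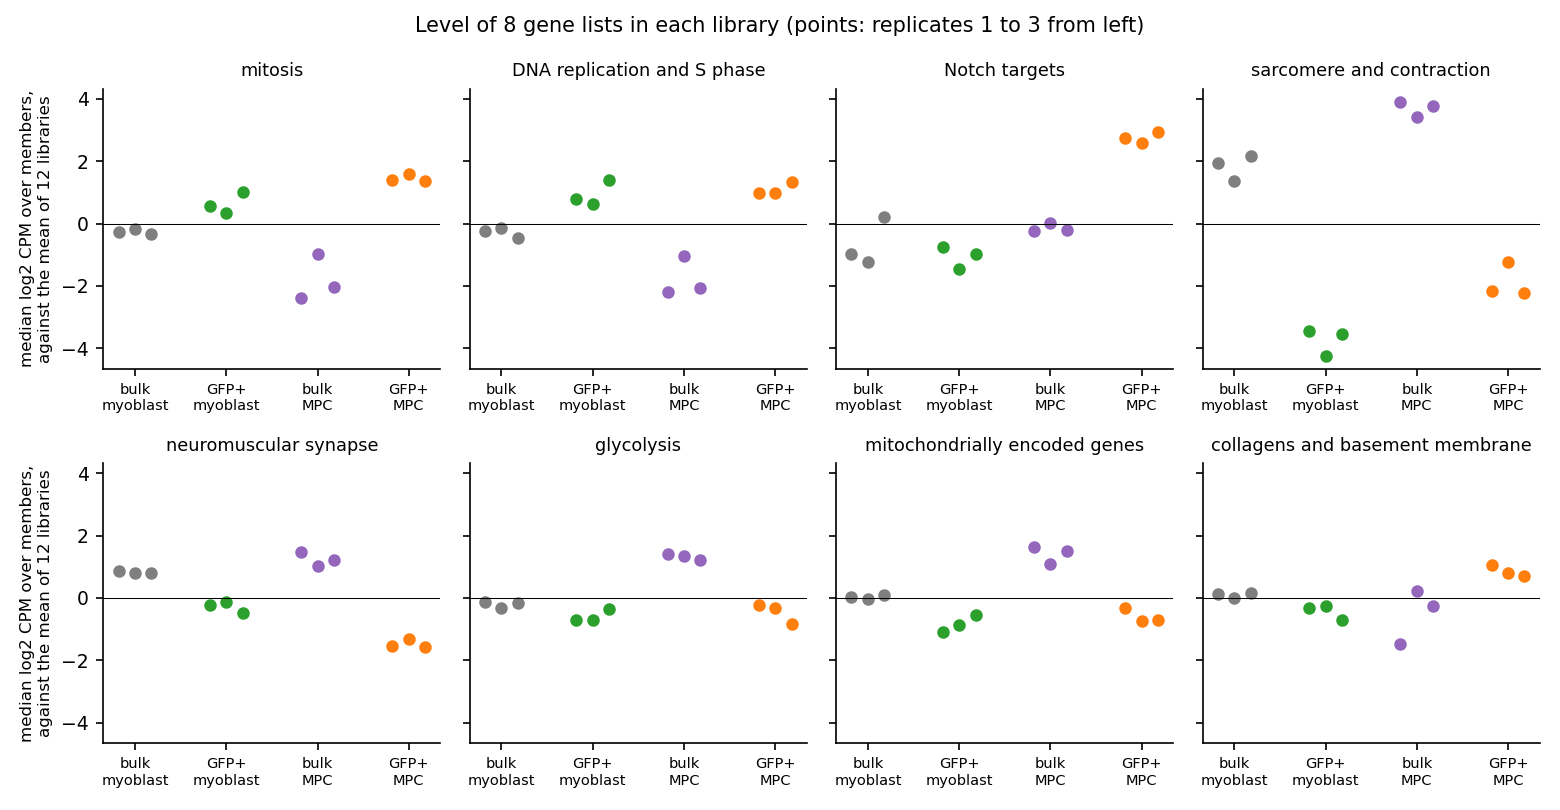
Median log2 CPM of the members of 8 gene lists in each library, against the mean of the 12 libraries, with 3 points for replicates 1 to 3 of each group. Bulk MPC is lowest for mitosis and S phase genes and highest for sarcomere, glycolysis and mitochondrially encoded genes, with replicate 2 nearer to the other groups for mitosis, S phase and collagen genes.

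Inhibitors of the cell cycle did not move as a group: of 10 tested, Cdkn1c, Cdkn2c and Rbl1 had a higher difference and Cdkn1a a lower one, or 2 a lower one without GFP+ myoblast replicate 3. The higher count was 5 with library totals alone. Cdkn1a, the inhibitor raised as myoblasts leave the cycle, was at 1987, 1503 and 1807 CPM in bulk MPC, 331, 167 and 230.2 in GFP+ MPC, 1307, 1111 and 1490.1 in bulk myoblasts and 621, 574 and 414 in GFP+ myoblasts. Sorted cells lay below unsorted cells in both cultures, with sort effects of -2.86 ± 0.24 and -1.28 ± 0.23, and the difference was -1.58 ± 0.32 (adjusted p = 0.00188). Cdkn1c, another inhibitor of the same family, did the reverse through the myoblast culture. Cdkn1c was at 941, 914 and 966 CPM in bulk MPC, 733, 1657 and 989 in GFP+ MPC, 54.3, 24.5 and 171 in bulk myoblasts and 4.41, 2.75 and 1.04 in GFP+ myoblasts. MPC libraries were high whether sorted or not, with overlapping values and a sort effect of 0.26 ± 0.54 (adjusted p = 0.688), while in the myoblast culture the sort effect was -4.89 ± 0.67 (adjusted p = 0.000143). The difference was 5.15 ± 0.84 (adjusted p = 0.000494). The inhibitor Cdkn2c and the retinoblastoma relative Rbl1 had differences of 1.45 ± 0.37 and 1.32 ± 0.35. Of 20 targets of p53, 8 had a lower difference (16.8% of all genes did) and 2 a higher one, Gdf15 and Bax. Neither was called without any one of 6 libraries (GFP+ MPC replicate 1, GFP+ myoblast replicates 1 and 2, bulk MPC replicates 2 and 3 and bulk myoblast replicate 2), and 1 was without GFP+ myoblast replicate 3, bulk MPC replicate 1 or bulk myoblast replicates 1 or 3. With library totals alone 4 were higher and 5 lower. Pmaip1, which promotes cell death, was at 199, 207 and 116 CPM in bulk MPC, 11.9, 9.55 and 11.1 in GFP+ MPC, 121, 107 and 116 in bulk myoblasts and 95.8, 89.97 and 42.95 in GFP+ myoblasts. Only GFP+ MPC was far from the other groups, and the difference was -3.42 ± 0.38 (adjusted p = 3.75e-05). Plk2 rose with sorting in the myoblast culture (0.69 ± 0.15) and fell in the MPC culture (-2.30 ± 0.16). The difference of the cyclin Ccng1 was -2.01 ± 0.38.

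Of 9 Notch targets tested, 6 rose with sorting in the MPC culture and none in the myoblast culture, where 32.9% and 12.7% of all genes rose. Of the 9, 6 had a higher difference (Cdkn1c, Heyl, Dtx4, Hey2, Hey1 and Nrarp) and 1 a lower one (Hes6), against 20.3% and 16.8% of all genes, and the median was 3.75. The same count held with library totals alone and with replicate number 2 left out of every group. Targets that the pathway raises and targets that it lowers were counted alike, so these counts do not give a direction of signalling. The higher difference of Cdkn1c came through its fall in the myoblast culture, as its MPC sort effect did not pass. Heyl, a transcriptional repressor of the Hey family, was at 41.4, 93.7 and 49.6 CPM in bulk MPC, 581, 542 and 637 in GFP+ MPC, 26.5, 10.9 and 74.1 in bulk myoblasts and 26.5, 10.3 and 5.58 in GFP+ myoblasts. All 3 GFP+ MPC libraries lay above 500 CPM and no other library reached 100. The sort effects were 3.25 ± 0.65 and -1.38 ± 0.63 (adjusted p = 0.11), and the difference was 4.63 ± 0.90 (adjusted p = 0.00152). Hey1, of the same family, was at 14.03, 21.2 and 11.2 CPM in bulk MPC, 141, 129 and 158 in GFP+ MPC, 5.99, 6.996 and 8.96 in bulk myoblasts and 5.77, 6.03 and 3.12 in GFP+ myoblasts. The pattern was that of Heyl, with overlapping myoblast groups and a difference of 3.75 ± 0.39 (adjusted p = 2.46e-05). Dtx4, a ubiquitin ligase of the pathway, was at 31.6, 63.1 and 43.7 CPM in bulk MPC, 455, 424 and 540.4 in GFP+ MPC, 35.2, 21.3 and 75.8 in bulk myoblasts and 30.1, 24.96 and 35.1 in GFP+ myoblasts, and its difference was 3.91 ± 0.54 (adjusted p = 0.000166). Hes6, which opposes the repressor Hes1, fell in both cultures and by more in the MPC culture, with a difference of -1.67 ± 0.37.

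The ligands of the pathway went both ways, while the called receptors and modulators were mostly higher. Of 5 ligands tested, Jag1, Dlk1 and Dll1 had a higher difference and Jag2 a lower one, beside 20.3% and 16.8% of all genes. Jag1 was at 3.58, 8.29 and 4.75 CPM in bulk MPC, 41.00, 47.1 and 53.2 in GFP+ MPC, 8.89, 9.52 and 11.8 in bulk myoblasts and 10.9, 10.1 and 8.85 in GFP+ myoblasts. Its sort effects were 3.08 ± 0.26 and -0.02 ± 0.24 (adjusted p = 0.969), a difference of 3.10 ± 0.34 (adjusted p = 3.8e-05). Without GFP+ MPC replicate 3 or bulk myoblast replicate 2, 2 ligands were lower. Jag2 was at 233, 185 and 207 CPM in bulk MPC, 56.3, 30.3 and 34.6 in GFP+ MPC, 125, 124 and 131 in bulk myoblasts and 134, 117 and 114 in GFP+ myoblasts. It fell in the MPC culture, and the myoblast groups overlapped. Its difference was -2.31 ± 0.26 (adjusted p = 4.2e-05). Dll1 had a difference of 1.64 ± 0.44 (adjusted p = 0.0108), with overlapping MPC groups. Dlk1, a non-canonical ligand that was high in the MPC culture whether sorted or not, had one of 2.37 ± 0.79 (adjusted p = 0.0317), with an adjusted p of 0.0573 to 0.0693 without GFP+ MPC replicate 1, GFP+ myoblast replicate 3, bulk MPC replicate 3 or bulk myoblast replicates 1 or 2, and of 0.0853 with DESeq2. Of 16 receptors and modulators, 8 had a higher difference and 1 a lower one, against 20.3% and 16.8% of all genes. With library totals alone these counts were 10 and 0. The lower one was Numb, an inhibitor of Notch, at -0.52 ± 0.16 (adjusted p = 0.0238). The call of Numb was lost with library totals alone (-0.15, adjusted p = 0.485), with length-scaled counts, with no filter, with replicate number 2 left out of every group and without bulk MPC replicate 1 or bulk myoblast replicate 2. Notch3 was at 69.00, 209 and 93.2 CPM in bulk MPC, 1016, 1063 and 711 in GFP+ MPC, 161, 173 and 207 in bulk myoblasts and 220.1, 201 and 132 in GFP+ myoblasts. Its difference was 2.88 ± 0.56 (adjusted p = 0.00148), that of Notch1 1.75 ± 0.32, and that of Lfng, a glycosyltransferase that tunes the receptors, 3.64 ± 0.75.

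Among other markers of muscle stem cells, more had a higher difference than a lower one. Of 28 markers tested, 14 had a higher difference and 4 a lower one (Des, Sdc4, Itga7 and Ncam1), against 20.3% and 16.8% of all genes. The counts were 16 and 2 with library totals alone, and the median was 1.90. In the MPC culture 15 rose and 7 fell, and in the myoblast culture 1 rose and 8 fell. The list shares Cdkn1c, Heyl, Hey1, Hes1, Notch3 and Myf5 with the lists above. Fgfr4, a fibroblast growth factor receptor of progenitors, was at 56.9, 128 and 86.8 CPM in bulk MPC, 706, 813 and 562 in GFP+ MPC, 49.6, 41.9 and 87.9 in bulk myoblasts and 80.8, 63.3 and 91.6 in GFP+ myoblasts. GFP+ MPC lay far above the other groups, and the difference was 2.54 ± 0.42 (adjusted p = 0.000504). The transcription factor Sox8 had a difference of 3.52 ± 0.72. Erbb3, a neuregulin receptor, fell in both cultures but by far more in the myoblast culture, -4.36 ± 0.27 beside -0.99 ± 0.23, so its difference was 3.37 ± 0.34. Des, the intermediate filament of muscle, was at 7116, 5959.9 and 5964 CPM in bulk MPC, 765, 542 and 722 in GFP+ MPC, 2295, 2106 and 2437 in bulk myoblasts and 1149.9, 1178 and 691 in GFP+ myoblasts. It fell in both cultures and the difference was -2.05 ± 0.27 (adjusted p = 0.000131). Sdc4, a heparan sulphate proteoglycan, had a difference of -1.45 ± 0.33.

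**Figure D3:**
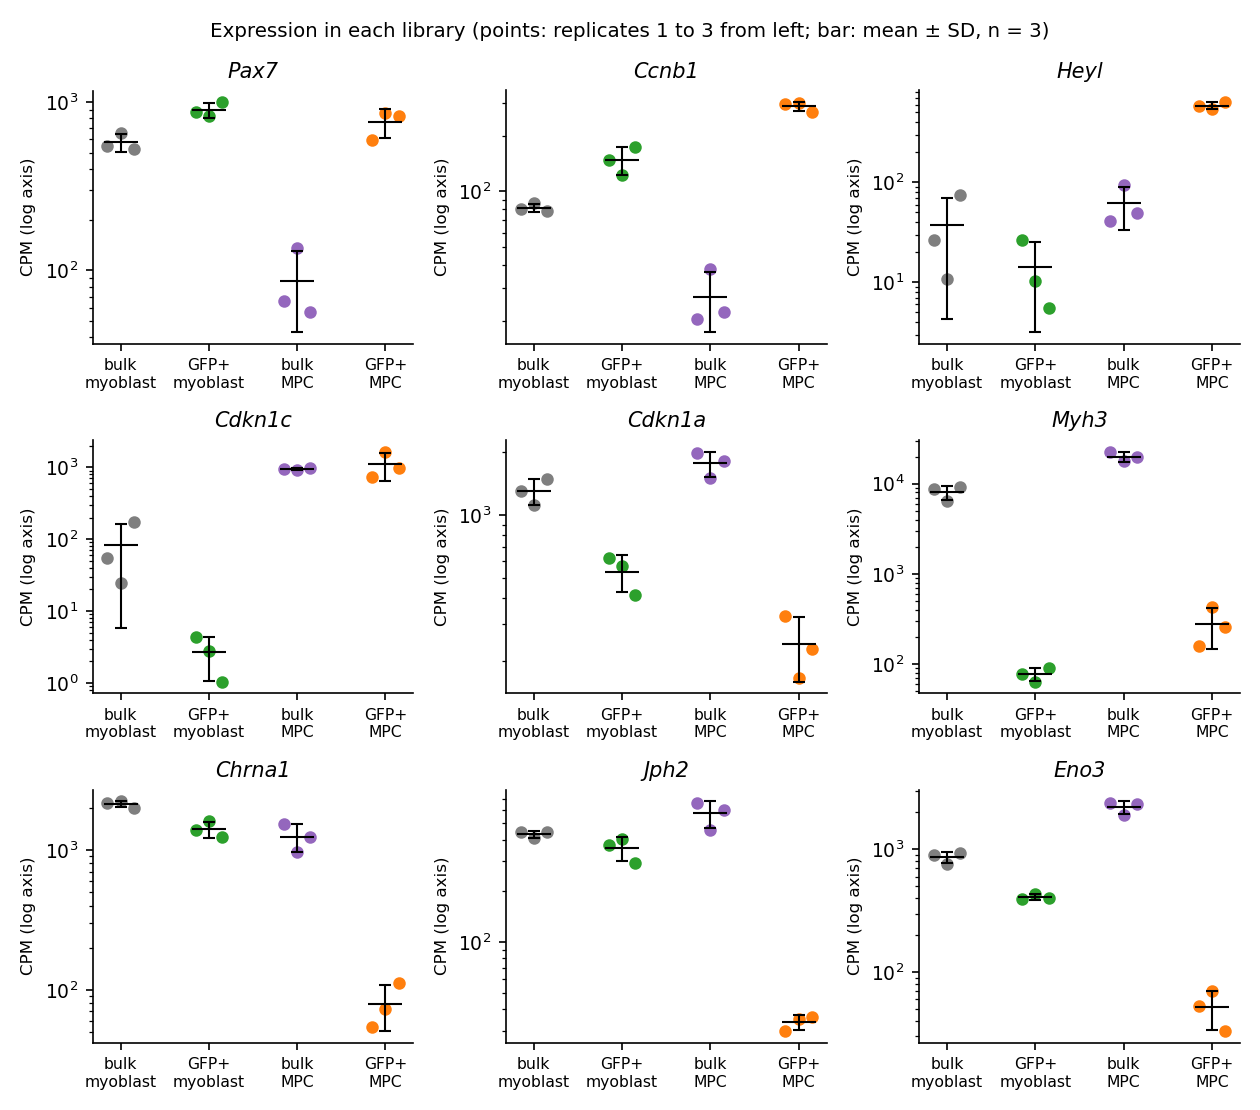
CPM of 9 genes in each of the 12 libraries on log axes, with the mean and SD of each group of 3. Pax7, Ccnb1 and Heyl are highest or near highest in GFP+ MPC, Myh3 falls in both cultures, and Chrna1, Jph2 and Eno3 are far lower in GFP+ MPC than in the other 3 groups.

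Contractile genes fell with sorting in both cultures. Of 35 sarcomere and contraction genes tested, 35 fell in the MPC culture and 34 in the myoblast culture, with median sort effects of -5.38 and -6.14. The difference was higher for 5 (Myh7, Actc1, Tcap, Myl4 and Casq2) and lower for 6, beside 20.3% and 16.8% of all genes, and 24 did not pass. The median difference was 0.50, or 0.25 with the single low gene at its bound of 3 counts. The counts depended on single libraries: without GFP+ MPC replicate 2 they were 1 higher and 10 lower, and without any one of 4 others (bulk MPC replicates 2 and 3, bulk myoblast replicates 1 and 3) 1 was higher. Without GFP+ myoblast replicates 1 or 2, 2 were higher, and without bulk MPC replicate 1, 3 were. With library totals alone 9 were higher and 6 lower. Summed over the list, bulk MPC held 122334 to 164767 CPM and bulk myoblasts 33830.3 to 50549. GFP+ MPC held 2716 to 5895 and GFP+ myoblasts 2716 to 3236. What part this gap has in the other results was not tested.

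Myh3, the embryonic myosin heavy chain, was at 22738, 17617 and 19515 CPM in bulk MPC, 158, 424 and 255 in GFP+ MPC, 8675, 6344 and 9097 in bulk myoblasts and 77.7, 63.4 and 89.1 in GFP+ myoblasts. The log2 sort effects were -6.16 ± 0.35 and -6.71 ± 0.36, and the difference was 0.55 ± 0.40 (adjusted p = 0.301), with an interval of -0.31 to 1.42. It was 0.12 without GFP+ MPC replicate 2, 0.84 without GFP+ MPC replicate 1 and 0.93 with library totals alone, none past the threshold. Ckm, muscle creatine kinase, had sort effects of -6.09 ± 0.55 and -7.38 ± 0.65, a difference of 1.29 ± 0.78 (adjusted p = 0.214). The Ckm difference was 0.59 without GFP+ MPC replicate 2, 0.72 without bulk myoblast replicate 3 and 1.96 with length-scaled counts, none past the threshold. Myh7, the slow myosin heavy chain, was at 159, 94.6 and 108 CPM in bulk MPC, 7.39, 15.3 and 7.13 in GFP+ MPC, 507, 351 and 639 in bulk myoblasts and 4.84, 3.88 and 6.72 in GFP+ myoblasts. Here bulk myoblasts were the highest group, and the fall was larger in the myoblast culture, so the difference was 3.01 ± 0.46 (adjusted p = 0.000333). Tcap, which caps titin, had a difference of 1.34 ± 0.46 (adjusted p = 0.0365), with an adjusted p of 0.0544 to 0.131 without any one library other than GFP+ MPC replicates 1 and 3, GFP+ myoblast replicate 3 and bulk myoblast replicate 2. The call of Tcap was also lost in limma-voom (adjusted p = 0.184) and with only the 12 libraries in the edgeR fit (adjusted p = 0.0579). Tpm1, a tropomyosin that non-muscle cells also express, was at 3973, 2778 and 3136 CPM in bulk MPC, 192, 602 and 408 in GFP+ MPC, 1582, 1542 and 1681 in bulk myoblasts and 1252, 1316 and 1374 in GFP+ myoblasts. It fell past the threshold in the MPC culture alone, and the difference was -2.75 ± 0.41 (adjusted p = 0.000251). The giant proteins Ttn and Neb had differences of -2.33 ± 0.49 and -1.84 ± 0.46, and the troponin Tnnt2 one of -1.75 ± 0.46.

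Genes of excitation-contraction coupling, which link the membrane potential to calcium release, fell in both cultures and some fell by more in the MPC culture. All 20 tested fell there and 18 fell in the myoblast culture. None had a higher difference, 9 had a lower one (16.8% of all genes did), and the median was -0.84. Without GFP+ MPC replicate 1 or GFP+ myoblast replicate 1, 1 was higher. Jph2, which ties the sarcoplasmic reticulum to the cell membrane, was at 662, 458 and 599 CPM in bulk MPC, 29.7, 35.1 and 36.3 in GFP+ MPC, 443, 409 and 443 in bulk myoblasts and 374, 405 and 292 in GFP+ myoblasts. The 9 libraries outside GFP+ MPC ranged from 292 to 662 CPM and those of GFP+ MPC from 29.7 to 36.3. The difference was -3.82 ± 0.21 (adjusted p = 3.78e-07). Stac3, a partner of the calcium channel, was at 169, 142 and 179 CPM in bulk MPC, 8.16, 16.05 and 10.8 in GFP+ MPC, 158, 152 and 157 in bulk myoblasts and 106, 104 and 73.04 in GFP+ myoblasts, with a difference of -3.08 ± 0.28 (adjusted p = 1.15e-05). Cacna1s, the channel itself, had sort effects of -6.17 ± 0.24 and -6.25 ± 0.24, with a difference of 0.08 ± 0.28 (adjusted p = 0.846) and an interval of -0.52 to 0.68.

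Genes of the neuromuscular synapse gave the most uniform lower difference of the muscle lists. Of 12 tested, 10 had a lower difference and none a higher one, against 16.8% of all genes, with a median of -1.62, or -1.95 with the low gene at its bound. With library totals alone 8 were lower. All 12 fell in the MPC culture and 8 in the myoblast culture. The promoters of the acetylcholine receptor subunits Chrna1 and Chrng are shown because the 2 had the largest differences of the list. They are 250-base runs from the same source, with CAGCTG in capitals, an E-box of the kind that MyoD family factors bind. It reads the same on both strands.
Chrna1 (chr2:73580339-73580588, minus strand): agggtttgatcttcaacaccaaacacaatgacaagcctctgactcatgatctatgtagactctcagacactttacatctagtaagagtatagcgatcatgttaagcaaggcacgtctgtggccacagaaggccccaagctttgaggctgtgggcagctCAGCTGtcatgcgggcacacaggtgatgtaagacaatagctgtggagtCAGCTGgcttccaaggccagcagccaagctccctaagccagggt
Chrng (chr1:87205561-87205810, plus strand): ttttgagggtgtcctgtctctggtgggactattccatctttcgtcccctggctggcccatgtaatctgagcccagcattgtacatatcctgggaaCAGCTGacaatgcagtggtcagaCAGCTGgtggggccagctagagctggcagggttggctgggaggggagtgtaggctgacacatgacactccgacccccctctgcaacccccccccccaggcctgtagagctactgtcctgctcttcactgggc
CAGCTG begins 92 and 44 bases before the start in Chrna1 and 155 and 132 bases before it in Chrng. It was found in 5 of the 8 matched synapse genes (62.5%) and in 12.8% of 27025 promoters, and at least 2 times in 2 of the 8 (25%) and in 1.16%. Of 30 matched sarcomere genes, 11 (36.7%) held CAGCTG. The general E-box CANNTG, which includes CAGCTG, was in all 8 synapse genes and in 66.0% of all promoters.

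Chrna1, the alpha subunit, was at 1539, 969 and 1225 CPM in bulk MPC, 54.1, 73.3 and 111 in GFP+ MPC, 2147, 2219 and 2004 in bulk myoblasts and 1383, 1602 and 1236 in GFP+ myoblasts. In the myoblast culture it stayed above 1000 CPM in sorted cells, and in GFP+ MPC it did not exceed 111. The sort effects were -3.97 ± 0.26 and -0.59 ± 0.23 (adjusted p = 0.0652), and the difference was -3.37 ± 0.33 (adjusted p = 1.74e-05). Chrng, the gamma subunit of the embryonic receptor, was at 1105, 874 and 1061 CPM in bulk MPC, 23.6, 54.8 and 39.2 in GFP+ MPC, 525, 491 and 586 in bulk myoblasts and 124, 174 and 121 in GFP+ myoblasts. It fell in both cultures, with sort effects of -4.69 ± 0.28 and -1.94 ± 0.25, a difference of -2.76 ± 0.35 (adjusted p = 9.53e-05). Etv5, an Ets factor of synaptic nuclei, had a difference of -2.66 ± 0.27, and Ache, the acetylcholinesterase, one of -2.17 ± 0.50.

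Fusion genes were split. Of 14 tested, 6 had a lower difference and 3 a higher one (Kirrel, Dock1 and Cdh15), against 20.3% higher and 16.8% lower of all genes. Mymk, the fusion protein myomaker, was at 739.7, 629 and 780.0 CPM in bulk MPC, 18.1, 39.5 and 39.1 in GFP+ MPC, 597, 538 and 772 in bulk myoblasts and 97.1, 70.2 and 52.1 in GFP+ myoblasts. It fell in both cultures, and its difference was -1.35 ± 0.38 (adjusted p = 0.0138), which was -1.53 (adjusted p = 0.0557) with replicate number 2 left out of every group. Dysf, a membrane repair protein, had a difference of -3.37 ± 0.42, and the unconventional myosin Myo10 one of -1.70 ± 0.29. Kirrel, an adhesion molecule, had a difference of 1.96 ± 0.51, and Dock1, an activator of Rac, one of 1.76 ± 0.24.

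**Figure D4:**
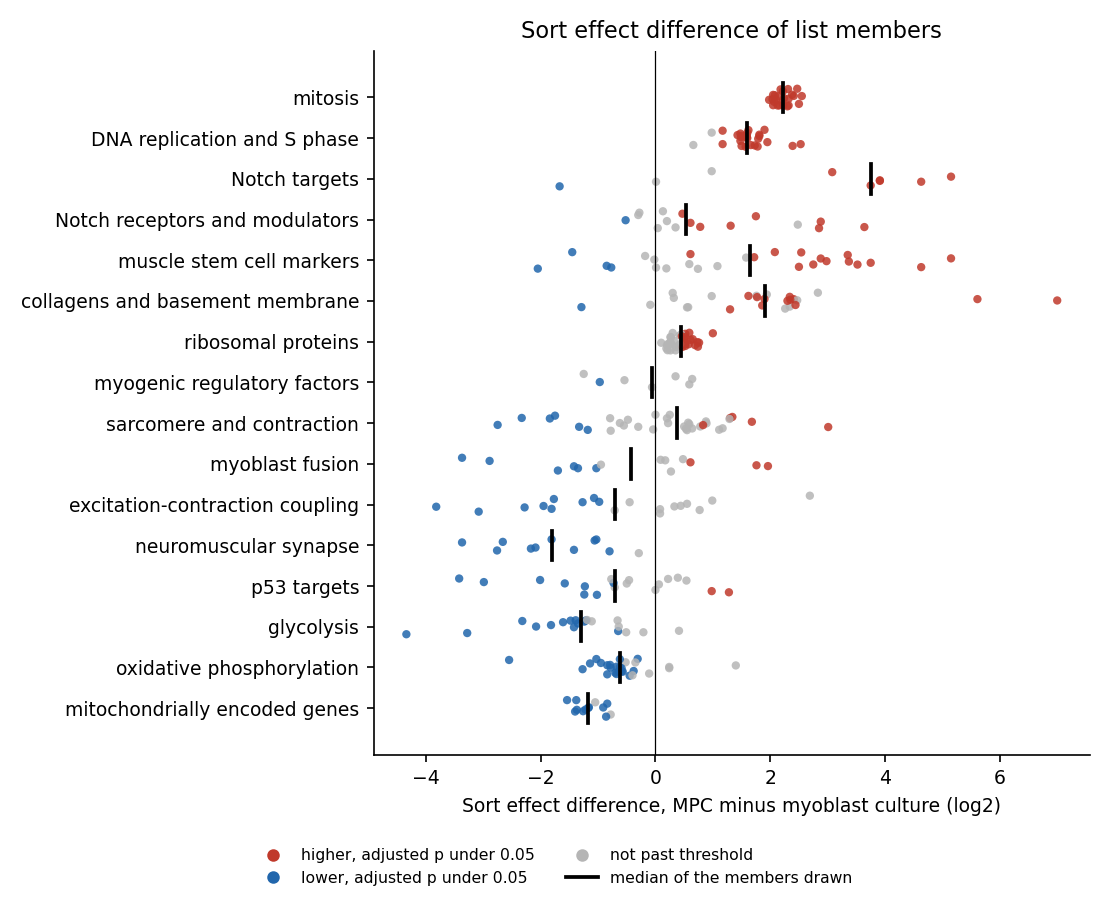
Sort effect difference (log2, MPC minus myoblast culture) of each tested member of 16 gene lists, with red for higher, blue for lower and grey for members that did not pass; black bars are medians, and genes with 3 or fewer counts in a group are not drawn. All 24 mitosis genes lie near 2, sarcomere genes spread to both sides of 0, and most glycolysis, oxidative phosphorylation and mitochondrially encoded genes lie below 0.

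Many genes of energy metabolism had a lower difference. Of 20 glycolysis genes, 13 did, against 16.8% of all genes, and none had a higher one, with a median of -1.29. Eno3, the muscle enolase, was at 2378, 1895 and 2351 CPM in bulk MPC, 53.1, 69.6 and 33.00 in GFP+ MPC, 893, 760.3 and 927 in bulk myoblasts and 391, 432 and 404 in GFP+ myoblasts. The groups did not overlap in either culture, and the sort effects were -5.41 ± 0.24 and -1.07 ± 0.20, a difference of -4.34 ± 0.30 (adjusted p = 1.59e-06). Tpi1, the triose phosphate isomerase, was at 634, 539 and 505 CPM in bulk MPC, 92.3, 59.00 and 42.8 in GFP+ MPC, 106, 62.3 and 89.02 in bulk myoblasts and 38.9, 37.5 and 72.4 in GFP+ myoblasts. Its bulk MPC libraries lay above 500 CPM and all others at or below 106, and the difference was -2.32 ± 0.42 (adjusted p = 0.00105). Pfkp, a phosphofructokinase, had a difference of -2.08 ± 0.25, and Aldoc, an aldolase with under 20 CPM in every library, one of -3.28 ± 0.63.

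Of 28 nuclear genes of oxidative phosphorylation, 21 had a lower difference (16.8% of all genes did) and none a higher one, with a median of -0.62. With library totals alone, 10 were lower and 1 higher. Cox7a1, the muscle form of a cytochrome oxidase subunit, was at 28.8, 23.8 and 34.95 CPM in bulk MPC, 1.17, 1.84 and 0.392 in GFP+ MPC, 1.46, 0.952 and 2.28 in bulk myoblasts and 0.217, 0.415 and 0.473 in GFP+ myoblasts, with a difference of -2.55 ± 0.67 (adjusted p = 0.00962). Ndufb8, of complex I, had a difference of -1.27 ± 0.16. Of 13 mitochondrially encoded genes, 11 had a lower difference and none a higher one, with a median of -1.17, and with library totals alone 8 were lower. mt-Nd2 was at 8379, 6165 and 7328 CPM in bulk MPC, 1645, 1117 and 1185 in GFP+ MPC, 2380.0, 2291 and 2529.6 in bulk myoblasts and 1037, 1253 and 1487 in GFP+ myoblasts. Bulk MPC was the highest group by a wide margin, and the difference was -1.54 ± 0.25 (adjusted p = 0.000468). mt-Co1 had a difference of -1.37 ± 0.25. Summed over the 13 genes, bulk MPC held 95988 to 123653 CPM, bulk myoblasts 37941 to 43633, GFP+ MPC 24159 to 32006 and GFP+ myoblasts 18506 to 26519. Ribosomal protein genes went the other way by small amounts: 18 of 37 had a higher difference (20.3% of all genes did) and none a lower one, with a median of 0.45. All 37 were higher with library totals alone and 4 with replicate number 2 left out of every group. The largest was Rpl22, at 1.00 ± 0.18.

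Genes of the Wnt, TGF-beta and cAMP pathways gave a mixed picture. Of 13 Wnt target genes tested, Tnfrsf19, Lgr5, Nkd1 and Axin2 had a higher difference and none a lower one, beside 20.3% and 16.8% of all genes. The higher count ran from 3 to 6 with 1 library left out. It was 6 with library totals alone. Axin2, a feedback inhibitor of the pathway, was at 17.01, 17.01 and 15.8 CPM in bulk MPC, 8.70, 5.70 and 6.82 in GFP+ MPC, 1.56, 1.05 and 3.09 in bulk myoblasts and 0.248, 0.302 and 0.237 in GFP+ myoblasts. It fell with sorting in both cultures, by more in the myoblast culture, where sorted cells were at 0.302 CPM or less. The difference was 1.61 ± 0.48 (adjusted p = 0.0181), or 1.07 without bulk myoblast replicate 3 and 1.41 (adjusted p = 0.0628) in limma-voom. Tnfrsf19, a receptor of the tumour necrosis factor family, had sort effects of -1.87 ± 0.27 and -5.32 ± 0.35, a difference of 3.44 ± 0.44. Lgr5, the R-spondin receptor, was at 4.65, 3.05 and 5.25 CPM in bulk MPC, 64.9, 32.1 and 52.4 in GFP+ MPC, 1.46, 1.43 and 3.06 in bulk myoblasts and 1.49, 1.89 and 3.31 in GFP+ myoblasts. It rose in the MPC culture alone, with a difference of 3.39 ± 0.52 (adjusted p = 0.000323). Of 26 Wnt ligands and receptors, 5 had a higher and 2 a lower difference, beside 20.3% and 16.8% of all genes. The higher count was 3 without bulk MPC replicate 3 or bulk myoblast replicates 1 or 2. The lower count was 0 without GFP+ MPC replicate 3, bulk MPC replicates 1 or 2 or bulk myoblast replicate 2, 3 without GFP+ myoblast replicate 3, and 1 without any one of the other 7. It was 0 with library totals alone. The receptor Fzd4 had a difference of 3.24 ± 0.64 and the ligand Wnt4 one of 2.88 ± 0.42.

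Of 22 TGF-beta target genes, 5 had a higher difference (Postn, Col1a2, Tagln, Acta2 and Fn1) and 5 a lower one (Pmepa1, Ccn1, Skil, Tgfb1 and Itgb5), shares near those of all genes (20.3% and 16.8%). Without bulk MPC replicate 2, 9 were higher, and with library totals alone 6 were higher and 3 lower. Pmepa1, a feedback inhibitor, was at 65.7, 36.6 and 44.4 CPM in bulk MPC, 8.20, 4.15 and 5.64 in GFP+ MPC, 84.1, 80.2 and 104 in bulk myoblasts and 73.6, 73.01 and 67.3 in GFP+ myoblasts, and its difference was -2.70 ± 0.32 (adjusted p = 5.68e-05). Postn, the matrix protein periostin, was at 0.372, 5.81 and 0.309 CPM in bulk MPC, 15.2, 97.3 and 17.9 in GFP+ MPC, 1.63, 1.48 and 5.58 in bulk myoblasts and 0.962, 0.830 and 0.0473 in GFP+ myoblasts. Within each MPC group replicate 2 was far above the others, and the standard error was large: 6.46 ± 1.61 (adjusted p = 0.00706). Of 26 ligands, receptors and antagonists of the TGF-beta family, 5 had a higher difference and 6 a lower one. The shares of all genes were 20.3% and 16.8%, and the list median was 0.01, so the list did not move as a group. The higher count was 8 without bulk MPC replicate 2, and the counts were 9 and 4 with library totals alone. Fstl3, which binds activin and myostatin, was at 12.6, 12.3 and 9.57 CPM in bulk MPC, 0.315, 0.335 and 0.314 in GFP+ MPC, 4.23, 5.62 and 5.41 in bulk myoblasts and 4.97, 5.09 and 6.05 in GFP+ myoblasts. Its replicates agreed closely, and GFP+ MPC lay far below the other groups, with a difference of -5.22 ± 0.33 (adjusted p = 6.86e-07). The related antagonist Fst had a difference of -2.53 ± 0.39, the type I receptors Bmpr1b and Acvr1b had differences of -3.51 ± 0.34 and -2.28 ± 0.22, and the ligand Tgfb2 one of 2.75 ± 0.49.

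Of 20 targets of cAMP and CREB, 6 had a higher difference and 5 a lower one, against 20.3% higher and 16.8% lower of all genes. Nr4a1, an early response gene, was at 84.2, 80.99 and 101 CPM in bulk MPC, 9.19, 7.75 and 2.47 in GFP+ MPC, 8.02, 7.14 and 15.6 in bulk myoblasts and 5.56, 4.71 and 8.09 in GFP+ myoblasts, high in bulk MPC alone. Its difference was -3.03 ± 0.55 (adjusted p = 0.00105). Ppargc1a, a coactivator of mitochondrial genes, had a difference of -3.57 ± 0.70, and Rgs2, a regulator of G protein signalling, one of 1.97 ± 0.46. Of 27 genes of FGF, IGF and HGF signalling, 6 had a higher difference and 5 a lower one, also near the shares of all genes. With library totals alone these counts were 10 and 4. Fgf13, a non-secreted member of the FGF family, had one of -4.16 ± 0.97. Igfbp2 and Igfbp3, both binding proteins of insulin-like growth factors, differed in direction: -3.65 ± 0.62 and 2.43 ± 0.57.

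Of 27 collagens and basement membrane genes tested, 15 rose with sorting in the MPC culture and none in the myoblast culture, where 32.9% and 12.7% of all genes rose. Of the 27, 14 had a higher difference (20.3% of all genes did) and 1, Lamb2, a lower one, with a median of 1.94. In the myoblast culture 6 fell. The higher count was 22 without bulk MPC replicate 2, 8 without bulk MPC replicate 3 and 9 without GFP+ myoblast replicate 3. Summed CPM of the list were 2577, 6495 and 3457 in bulk MPC replicates 1, 2 and 3. Col15a1, a collagen of basement membrane zones, was at 50.5, 317 and 149.8 CPM in bulk MPC, 1263, 1743 and 1511 in GFP+ MPC, 5.29, 10.9 and 33.2 in bulk myoblasts and 2.02, 0.905 and 0.237 in GFP+ myoblasts. Its GFP+ MPC libraries lay above all others, and bulk MPC lay between them and the myoblast groups. The difference was 7.0 ± 1.38 (adjusted p = 0.00172). Col1a2, a chain of fibrillar collagen I, was at 2.04, 2.001 and 2.10 CPM in bulk MPC, 6.40, 1.38 and 11.4 in GFP+ MPC, 22.7, 40.9 and 92.3 in bulk myoblasts and 1.96, 5.05 and 2.98 in GFP+ myoblasts. It was highest in bulk myoblasts and at most 11.4 CPM in any MPC library, and the difference of 5.61 ± 1.33 (adjusted p = 0.00525) came with overlapping MPC groups. Lamb2, a laminin chain of the synaptic basement membrane, had a difference of -1.29 ± 0.28. Of 24 integrin and adhesion genes, 7 had a higher and 7 a lower difference, beside 20.3% and 16.8% of all genes. With library totals alone these counts were 10 and 3. Dmd, dystrophin, fell in both cultures and by more in the myoblast culture, with a difference of 2.34 ± 0.55. The integrin chains Itga8 and Itgb4 had differences of 3.16 ± 0.90 and -2.95 ± 0.84. With length-scaled counts the adjusted p of Itga8 was 0.102.

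In 123 genes the 2 sort effects passed with opposite signs. The 12 shown are the 6 in each direction with the largest smaller effect, and this choice rests on the same values. Capn6, a calpain relative without protease activity, was at 307, 411 and 539 CPM in bulk MPC, 929.8, 2292 and 1319 in GFP+ MPC, 27.6, 13.04 and 33.97 in bulk myoblasts and 0.497, 0.302 and 0.568 in GFP+ myoblasts. Sorted myoblasts were below 0.6 CPM in all 3 libraries, whereas GFP+ MPC lay above bulk MPC in all 3. The difference was 7.62 ± 0.67 (adjusted p = 8.1e-06). Ngfr, the low-affinity neurotrophin receptor, was at 2.65, 13.1 and 4.57 CPM in bulk MPC, 48.8, 56.99 and 95.5 in GFP+ MPC, 4.63, 3.90 and 3.06 in bulk myoblasts and 0.528, 1.02 and 0.378 in GFP+ myoblasts, and its difference was 5.87 ± 0.74 (adjusted p = 8.88e-05). The matrix protein Olfml2a had a difference of 6.14 ± 0.81, Rtl3, a gene derived from a retrotransposon, one of 5.27 ± 0.65, and Plekhg1 one of 4.86 ± 0.71. In the other direction, Ccn1, a matrix-associated growth regulator, was at 93.9, 70.9 and 52.6 CPM in bulk MPC, 22.03, 46.3 and 46.1 in GFP+ MPC, 129, 148 and 118 in bulk myoblasts and 287, 314 and 385 in GFP+ myoblasts. Sorting raised it in the myoblast culture and lowered it in the MPC culture, with no overlap between groups in either, and its difference was -2.25 ± 0.37 (adjusted p = 0.00053). Fhdc1, a formin relative, had a difference of -4.03 ± 0.69. Pltp, a phospholipid transfer protein, Hivep3, a zinc finger factor, Triobp, an actin-bundling protein, and Cadm1, an adhesion molecule, had differences of -2.39, -2.13, -1.83 and -1.64. Hivep3 was at -1.23 with length-scaled counts, and Pltp at -1.99 (adjusted p = 0.0662) with replicate number 2 left out of every group.

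**Figure D5:**
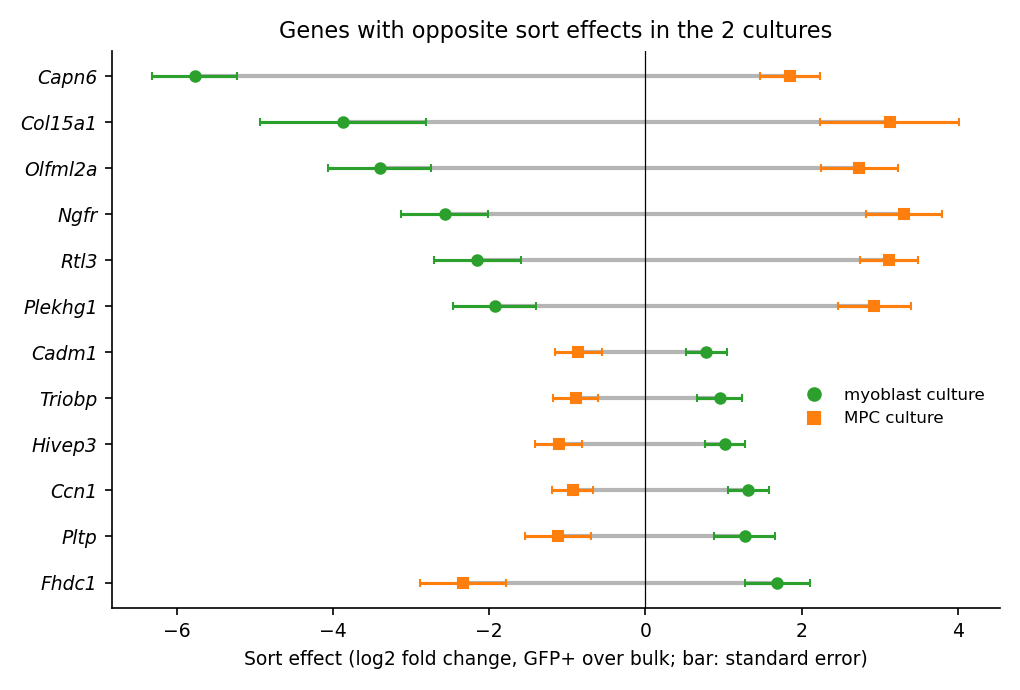
Sort effect (log2 fold change, GFP+ over bulk) with its standard error in the myoblast culture (circles) and in the MPC culture (squares) of 12 genes whose effects had opposite signs. Capn6, Col15a1, Olfml2a, Ngfr, Rtl3 and Plekhg1 fell in the myoblast culture and rose in the MPC culture, and the other 6 did the reverse with smaller effects.

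Protein-coding genes in no list were also ranked by their lower difference, among those whose highest group averaged 10 CPM or more and whose every group had over 3 counts. B4galnt3, a glycosyltransferase, was at 26.9, 14.7 and 12.5 CPM in bulk MPC, 0.135, 0.0838 and 0.0784 in GFP+ MPC, 6.66, 7.57 and 5.41 in bulk myoblasts and 7.82, 5.43 and 3.07 in GFP+ myoblasts. The myoblast groups overlapped, and the difference was -7.19 ± 0.63 (adjusted p = 8.1e-06). Cd24a, a glycoprotein anchored to the cell surface, was at 571, 372 and 536 CPM in bulk MPC, 5.50, 7.25 and 6.90 in GFP+ MPC, 16.8, 13.4 and 5.23 in bulk myoblasts and 17.97, 14.3 and 3.64 in GFP+ myoblasts. Bulk MPC was the high group, and the difference was -6.27 ± 0.69 (adjusted p = 3.65e-05). Alox5, arachidonate 5-lipoxygenase, was at 117, 98.8 and 68.4 CPM in bulk MPC, 4.33, 1.42 and 2.86 in GFP+ MPC, 233, 265 and 199 in bulk myoblasts and 268, 242 and 382 in GFP+ myoblasts. It was high in both myoblast groups and low only in GFP+ MPC, and the difference was -5.40 ± 0.48 (adjusted p = 8.9e-06). Cgref1, Cacna1i, a T-type calcium channel, Rab3b, a GTPase of secretion, and Gcnt1, another glycosyltransferase, had differences of -5.55, -5.53, -5.28 and -5.23. Cgref1 had a sort effect of 0.00 ± 0.21 (adjusted p = 0.997) in the myoblast culture.

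Some genes changed with sorting in both cultures with a small difference. In all, 2061 genes passed in both with the same direction and a difference that did not pass, which does not show that the effects were equal. The genes named here had the largest changes among those with a difference under 0.3. Tmem182, a muscle membrane protein, was at 214, 178 and 291 CPM in bulk MPC, 4.55, 6.202 and 4.94 in GFP+ MPC, 119, 92.2 and 114 in bulk myoblasts and 3.04, 2.56 and 3.45 in GFP+ myoblasts. The sort effects were -5.44 ± 0.21 and -5.17 ± 0.21, and the difference was -0.27 ± 0.26, with an interval of -0.83 to 0.28. Ywhah, a 14-3-3 protein, was at 53.1, 58.4 and 47.2 CPM in bulk MPC, 99.4, 101 and 113 in GFP+ MPC, 102, 97.99 and 87.2 in bulk myoblasts and 149.5, 157 and 221 in GFP+ myoblasts. It rose by 0.98 ± 0.14 and 0.87 ± 0.14, with a difference interval of -0.31 to 0.53. Map3k12, a stress-pathway kinase, and Siva1, a regulator of cell death, rose in both cultures as well, with difference intervals of -0.34 to 0.78 and -0.16 to 0.74. The Siva1 difference was 0.65 with library totals alone and then passed (adjusted p = 0.0349).

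Smaller or scattered differences were seen in the other lists, where the shares of all genes to compare are 20.3% higher and 16.8% lower. Of 18 genes of fatty acid synthesis and lipid storage, 7 had a higher difference, led by the elongase Elovl6 (1.76 ± 0.32), and 2 a lower one, Pnpla2 and the desaturase Scd1 (-2.18 ± 0.45). Of 23 cholesterol synthesis genes, 5 were higher and 1 was lower, with 3 lower without GFP+ MPC replicate 2 and none without bulk MPC replicate 1. The counts were 11 higher and 0 lower with library totals alone. Of 25 immediate early genes, which tissue dissociation can raise, 1 was higher, or 2 without GFP+ MPC replicate 3 or with library totals alone, and 5 were lower, Nr4a1, Ier3, Klf2, Dusp1 and Btg2. Of 19 genes of the unfolded protein and heat shock response, 1 was higher and 3 were lower, Hspb1, Cryab and Xbp1, or 8 and 2 with library totals alone. Without GFP+ myoblast replicate 3, 5 were higher, without GFP+ MPC replicate 2, 2 were, and without GFP+ MPC replicate 1, GFP+ myoblast replicates 1 or 2, bulk MPC replicates 1 or 3 or bulk myoblast replicates 1 or 2, none was. Hspb1, a small heat shock protein abundant in muscle, was at 326, 268 and 269.6 CPM in bulk MPC, 26.4, 22.7 and 33.6 in GFP+ MPC, 150.5, 162 and 159 in bulk myoblasts and 127, 135 and 119 in GFP+ myoblasts, with a difference of -3.08 ± 0.18 (adjusted p = 4.31e-07), and Cryab, of the same family, had one of -2.06 ± 0.25. Of 15 interferon-stimulated genes 1 was lower, Bst2, or 3 without GFP+ MPC replicate 2, and none was higher, or 1 without GFP+ MPC replicates 1 or 3 or bulk MPC replicates 2 or 3, and 2 with library totals alone. Of 6 tested replication-dependent histone genes 2 were lower, Hist1h2bc and Hist1h1c, and all 6 fell in both cultures. Most mRNAs of this histone class lack a poly(A) tail, and the libraries were poly(A)-selected.

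For other cell types, the genes picked here as defining were low or at 0, but not every marker was. Of 10 Schwann cell markers 5 were tested, and Ngfr and Erbb3 were higher and Mbp lower (adjusted p = 0.0902 with replicate number 2 left out of every group), while Sox10 and S100b were at 0 to 0.143 CPM in all 12 libraries. Summed CPM of that list were 231 to 252 in bulk MPC, 128 to 254 in GFP+ MPC, 172 to 299.9 in bulk myoblasts and 17.03 to 26.3 in GFP+ myoblasts. Of 12 leukocyte markers 4 were tested, 1 was lower (Fcer1g), and Ptprc and Adgre1 did not exceed 0.143 CPM. Their summed CPM were 8.48 to 14.2 in bulk MPC, 2.78 to 4.42 in GFP+ MPC, 5.000 to 6.72 in bulk myoblasts and 2.83 to 3.64 in GFP+ myoblasts. Of 11 endothelial markers 6 were tested, none passed for the difference with edgeR (1 without bulk MPC replicate 2), and Cdh5 did not exceed 1.36 CPM. Summed CPM of the endothelial list did not exceed 28.8 in any library. Of 9 adipocyte markers 3 were tested, 1 was higher (Lpl), and Adipoq did not exceed 0.0754 CPM. Summed CPM of the adipocyte list, nearly all from Lpl in the MPC culture, were 94.4 to 173 in bulk MPC, 233 to 362 in GFP+ MPC, 26.7 to 27.6 in bulk myoblasts and 17.8 to 36.96 in GFP+ myoblasts. Of 9 tenocyte markers 5 were tested, with the matrix protein Tnc higher (2.73 ± 0.58) and the tendon factor Scx lower (-2.49 ± 0.30), and Tnmd did not exceed 0.285 CPM.

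Fibroblast and pericyte markers moved with single libraries. Of 14 markers of fibroblasts and fibro-adipogenic progenitors 11 were tested, 2 were higher (Mfap5 and Fbln1) and 1 was lower (Pdgfra). Without bulk MPC replicate 2, 4 were higher, and without GFP+ MPC replicate 3, GFP+ myoblast replicates 2 or 3, bulk MPC replicates 1 or 3 or bulk myoblast replicates 2 or 3, 1 was. Dcn was at 0.0465, 31.3 and 0.185 CPM in bulk MPC, 0.811, 8.46 and 1.06 in GFP+ MPC, 0.133, 0 and 0.249 in bulk myoblasts and 0, 0.0377 and 0 in GFP+ myoblasts, and Lum was at 8.19 CPM in bulk MPC replicate 2 and at 0 in the other 11 libraries. Pdgfra was at 0.651, 12.4 and 0.556 CPM in bulk MPC, 0.270, 0.419 and 0.196 in GFP+ MPC, 1.46, 2.95 and 2.38 in bulk myoblasts and 1.83, 1.73 and 2.03 in GFP+ myoblasts, and its difference of -3.66 ± 1.30 (adjusted p = 0.0409) was -0.76 (adjusted p = 0.304) without bulk MPC replicate 2. The call of Pdgfra was also lost without any one of the other libraries except bulk MPC replicates 1 and 3, and under 6 of the other settings. Summed CPM of the list were 249 to 353 in bulk MPC, 274 to 352 in GFP+ MPC, 217 to 226 in bulk myoblasts and 172 to 225 in GFP+ myoblasts. Of 12 pericyte and smooth muscle markers 11 were tested, and 5 were higher (Myh11, Tagln, Notch3, Acta2 and Abcc9) and 1 lower (Des). Summed CPM of the pericyte list were 6538 to 7645 in bulk MPC, 2203 to 2315 in GFP+ MPC, 3569 to 4233 in bulk myoblasts and 1151 to 2045 in GFP+ myoblasts. What part these markers have in the differences of collagen and TGF-beta genes was not tested.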

How the data were processed

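Per the labels' protocols, RNA was poly(A)-selected, made into stranded libraries and sequenced from a single end. Per the submitters' processing notes, reads went through fastp (version 0.20.0) and kallisto (version 0.46.1), and the build is GRCm39. Per the file headers, the deposited files give for each transcript estimated counts, TPM and effective length, an other unit; the authors' deposited TPM and lengths served only an alternative. Estimated counts were summed per gene by GENCODE M21 (GRCm38, for names and types alone) and rounded. Of 121798 transcripts 1059 did not match and were left out (0.478% to 1.05% of counts in the 12 libraries).

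edgeR 4.0.16 (R 4.3.3) was fitted to 15 libraries in 5 groups with TMM scaling and its filter on low counts (minimum 10), which left 15533 genes, a common dispersion of 0.047 and 10 residual degrees of freedom. Standard errors come from the F statistic. p values were adjusted by Benjamini-Hochberg over all genes for 3 comparisons, the difference and the 2 sort effects. The fit was tested on simulated counts. Replicates differed by more than counting noise (chi-square per degree of freedom 10.6 or more).

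The members, the 38 gene lists and the comparisons were chosen with earlier results of these data known. Genes were named by a rule: 9 fixed genes; up to 4 called members of each list in its main direction and 2 in the other, with the same sign in all 3 replicate numbers; the 8 largest differences each way; the 6 opposite effects each way; and shared responses (difference under 0.3). Members named without values were chosen after their values were seen. Promoters came from the RefSeq table, matched by symbol. Alternatives were other scalings, filters and tests (DESeq2 1.42.0, limma 3.58.1), a replicate block, each library left out and, chosen after seeing the data, replicate number 2 left out of every group.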

Additional observations from a re-analysis of the deposited data

Results flagged for a closer look

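How far the MPC sort effect departed from the myoblast one, tested as an interaction, passed for 3149 genes with a higher effect in the MPC culture and for 2606 with a lower one. In 12 named genes the 2 effects also had opposite signs, each past the threshold: Capn6 (7.62), Col15a1 (7.0), Olfml2a (6.14), Ngfr (5.87), Rtl3 (5.27) and Plekhg1 (4.86) had a positive difference, and Fhdc1 (-4.03), Pltp (-2.39), Ccn1 (-2.25), Hivep3 (-2.13), Triobp (-1.83) and Cadm1 (-1.64) a negative one, all as log2 values.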

How the results depend on the processing

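With library totals alone, the difference was higher for 5490 genes and lower for 1547, and 2981 genes rose in the myoblast culture. That scaling moved the median of all genes by 0.37, and 81.6% of the 5755 calls kept their call and sign. Under the other settings for the difference, with replicate number 2 left out of every group (2363 and 1937) included, counts were within 1.5 times of 3149 and 2606. With the size factors of DESeq2 they were nearly even, 2880 higher and 2864 lower. With only the 12 libraries in the fit, 15256 genes were tested, 2799 were higher and 2314 lower. Of the 5755 calls, 88.3% then kept their call and sign. Leaving out 1 library at a time, 2585 to 3345 genes were higher and 2212 to 2681 lower. Sorting then raised 4670 to 5304 and lowered 4879 to 5416 genes in the MPC culture, and raised 828 to 2200 and lowered 1891 to 2915 in the myoblast culture. Over all 4 groups the replicate numbers did not pair the samples: correlations of same-numbered libraries ran from -0.166 to 0.163 and 3 of 18 exceeded 0.1. Those 3 were the same-numbered pairs of bulk myoblasts and bulk MPC (0.131 to 0.163), whose libraries with different numbers had correlations of -0.141 to -0.019. In these 2 groups deviations went together by number. Deviations from a group mean sum to 0, so opposite signs between different numbers partly follow and are no separate evidence. Values as high also occurred between different numbers: 0.158 for bulk myoblast replicate 2 with GFP+ MPC replicate 3, and 0.163 for bulk myoblast replicate 3 with GFP+ MPC replicate 2. The same-numbered pairs of these libraries were at -0.1455 for number 2 and -0.1657 for number 3. Sorted libraries did not deviate with the unsorted libraries of their culture (-0.0123 to 0.0420). With the replicate block, 3066 genes were higher and 2493 lower, and of the named genes Pdgfra alone lost its call (-3.30, adjusted p = 0.0626). Signs turned for genes that had not passed: with library totals alone Myod1 was at 0.31 and Tmem182 at 0.10. Leaving out 1 library at a time, Myod1 ran from -0.43 to 0.27, Myog from -0.05 to 0.83 and Cacna1s from -0.07 to 0.26. Among 121 named genes, 1308 of 1331 values under settings that left out no single library kept their direction and side of the threshold, as did 1420 of 1452 with 1 library left out. Depth limits the genes with few counts: 892 tested genes had 3 or fewer in a group, and 150 of them were called.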
